A study of Mus musculus with 6 samples.

Results

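The 4 genes described here encode the activating arm of the mammalian circadian clock: Arntl (which makes the protein BMAL1), Clock, and their respective paralogues Arntl2 (BMAL2) and Npas2. They were taken by symbol from the gene table of the deposited matrices, and each of the 4 symbols matched 1 of the 31053 genes. All 4 were measured by single-cell RNA sequencing in cells labelled as coming from the mouse melanoma line YUMM2.1, and their levels were compared between cell classes and between an empty vector and a Bmal1 vector.

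BMAL1 and CLOCK are basic helix-loop-helix PAS proteins that bind DNA as a heterodimer at E-box motifs and switch on the Per and Cry genes, whose products in turn repress the heterodimer. The same heterodimer drives Nr1d1 and Nr1d2, which encode the REV-ERB repressors. REV-ERBs and the ROR activators compete for elements in the Arntl promoter and so form a further loop of the clock. NPAS2 can take the place of CLOCK, and BMAL2 can likewise pair with CLOCK. The clock is known to run in most cell types of the body, including fibroblasts and immune cells.

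YUMM2.1 carries an activated mutant Braf, has lost 1 copy of Cdkn2a, and is heterozygous for a stabilised β-catenin. In the study, vectors were delivered by lentivirus and the resulting lines were sorted as GFP-positive pools, both from native YUMM2.1 and from a Bmal1-null clone. Which of these backgrounds was sequenced, whether the cells came from culture or tumours, any treatment and the time of collection were not stated in the labels or the study's methods for these samples. The cells gated below included T, NK, macrophage, dendritic and fibroblast classes, so the libraries did not hold the melanoma line alone. Mice used in the study were young adults. The samples used were the library labelled Empty vector (hashtags h1, h7 and h8) and the library labelled Bmal1 WT (hashtags h3, h5 and h9), each with 3 replicates told apart by hashtag antibodies and pooled in 1 droplet channel. The group and the channel therefore cannot be told apart, the labels do not say whether replicates were separate animals or cultures, and p-values measure only the spread between these hashtag replicates. The files deposited for a Bmal1 bHLH group were identical to those of Bmal1 WT in 3 of 3 cases and were not used.

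After filtering, 3978 Empty vector cells (median 5094 UMIs, unique molecular identifiers that each stand for 1 captured transcript) and 2386 Bmal1 WT cells (median 7570.5 UMIs) remained, and the libraries shared 5 cell barcodes. A gate on marker genes placed 3129 and 1719 of these cells (78.7% and 72.0%) in 6 classes, and 1009 of the 4848 gated cells (20.8%) stood at the limit of the gate. No member was among the marker genes. The melanoma gate took 124 Empty vector and 289 Bmal1 WT cells with median depths of 10753.5 and 20501 UMIs. Of these cells, 83.3% had a UMI of Sox10 and 87.9% of S100b, genes of the neural crest lineage. Both are markers of the melanoma gate, so their shares in this and the other classes follow in part from the gate. The pigment genes were nearly silent, with 0 UMIs of Mlana and Tyrp1 and at most 7 of Pmel, Dct and Tyr, so the class is a Sox10-positive one without a pigment programme and is called melanoma-gated below. Sox10 was seen in 1.17% of fibroblast-gated and 0.135% of NK-gated cells, although S100b was seen in 14.0% of fibroblast-gated cells. The part of shared or free RNA in the fibroblast values was not tested.

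The promoter of Arntl is shown because it holds elements known to tie this gene to the further loop of the clock. Arntl lies on the plus strand of chromosome 7 at 113207465 to 113314126 (GRCm38, GENCODE M21) and has 20 exons in its principal transcript. RefSeq (GRCm38.p6) places 1 of its promoters at chr7:113207261-113207560 on the plus strand. The capitals mark the matches to TAGGTNA, the core of a REV-ERB and ROR element, searched on both strands:
Arntl promoter: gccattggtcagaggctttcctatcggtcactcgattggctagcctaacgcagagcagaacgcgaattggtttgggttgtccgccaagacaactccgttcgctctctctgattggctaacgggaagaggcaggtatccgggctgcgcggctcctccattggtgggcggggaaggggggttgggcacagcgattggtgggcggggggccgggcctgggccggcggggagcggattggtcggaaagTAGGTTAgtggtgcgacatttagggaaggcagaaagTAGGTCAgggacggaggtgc
This window held 2 matches, and the other Arntl window, which overlaps it (chr7:113207215-113207514), held 1. At least 1 match was present in 8.30% of 32544 promoter windows of the same length, and 2 or more in 0.562%. No TAGGTNA was found in the windows of Clock, Arntl2 or Npas2, and the E-box CACGTG, present in 7.17% of all windows, was found in none of the members' windows. Clock lies on the minus strand of chromosome 5 (76209868 to 76304792), Arntl2 on the plus strand of chromosome 6 (146796055 to 146833529) and Npas2 on the plus strand of chromosome 1 (39193731 to 39363236). The only Arntl2 window (chr6:146805280-146805579) lies inside the gene, so the annotated start of Arntl2 was not searched. The only Npas2 window (chr1:39194022-39194321) also lies inside its gene, so the annotated start of Npas2 was not searched either. The only annotated gene that overlaps a member and was counted, Gm45355 antisense to Arntl, had 0 UMIs in the 6 classes.

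Arntl was highest in melanoma-gated cells and lowest in macrophages and dendritic cells. Over both libraries its level was 65.8 CPM (UMIs of the gene scaled to a total of 1000000 per class) in melanoma-gated cells (1075 UMIs, 95% Poisson interval 62.0 to 69.9), 48.5 in fibroblasts (375 UMIs) and 28.6 in T cells (295 UMIs). It was 19.5 CPM in NK cells (183 UMIs), 6.84 in macrophages (50 UMIs) and 5.99 in dendritic cells (40 UMIs). The melanoma-gated level was 11-fold that of dendritic cells (8.02 to 15.5) and 2.30-fold that of T cells (2.02 to 2.63), where intervals, here and for all pooled counts, cover counting error only.

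By replicate, melanoma-gated Arntl was 54.2, 100.2 and 57.2 CPM in the Empty vector hashtags h1, h7 and h8 and 43.1, 66.7 and 64.9 CPM in the Bmal1 WT hashtags h3, h5 and h9. The h7 value rests on 6 cells and 7 UMIs. In dendritic cells the same replicates gave 6.39, 7.49 and 4.17 CPM and 4.02, 10.0 and 4.73 CPM. Every melanoma-gated replicate thus stood above every dendritic cell replicate, and Arntl was higher in melanoma-gated cells than in each of the other 5 classes in 6 of 6 replicates. The exact sign-flip permutation test of each of these pairs gave p = 0.03125 (two-sided, the smallest that 6 replicates allow), which is 0.0987 after Benjamini-Hochberg adjustment over 60 pairs of classes and genes. Against fibroblasts the lead was narrow in Empty vector h1 (54.2 against 53.6 CPM). With classes from Leiden clusters it held in 5 of 6 replicates (exact sign-flip p = 0.0625). Fibroblasts and T cells were not separated (higher in fibroblasts in 4 of 6 replicates, exact p = 0.5625), nor were T and NK cells (4 of 6, exact p = 0.125) or macrophages and dendritic cells (3 of 6, exact p = 0.78125). NK cells were above macrophages in 6 of 6 replicates, by 1.38 ± 0.82 on the log2(CPM + 1) scale (SD, n = 6, exact p = 0.03125).

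**Figure D1:**
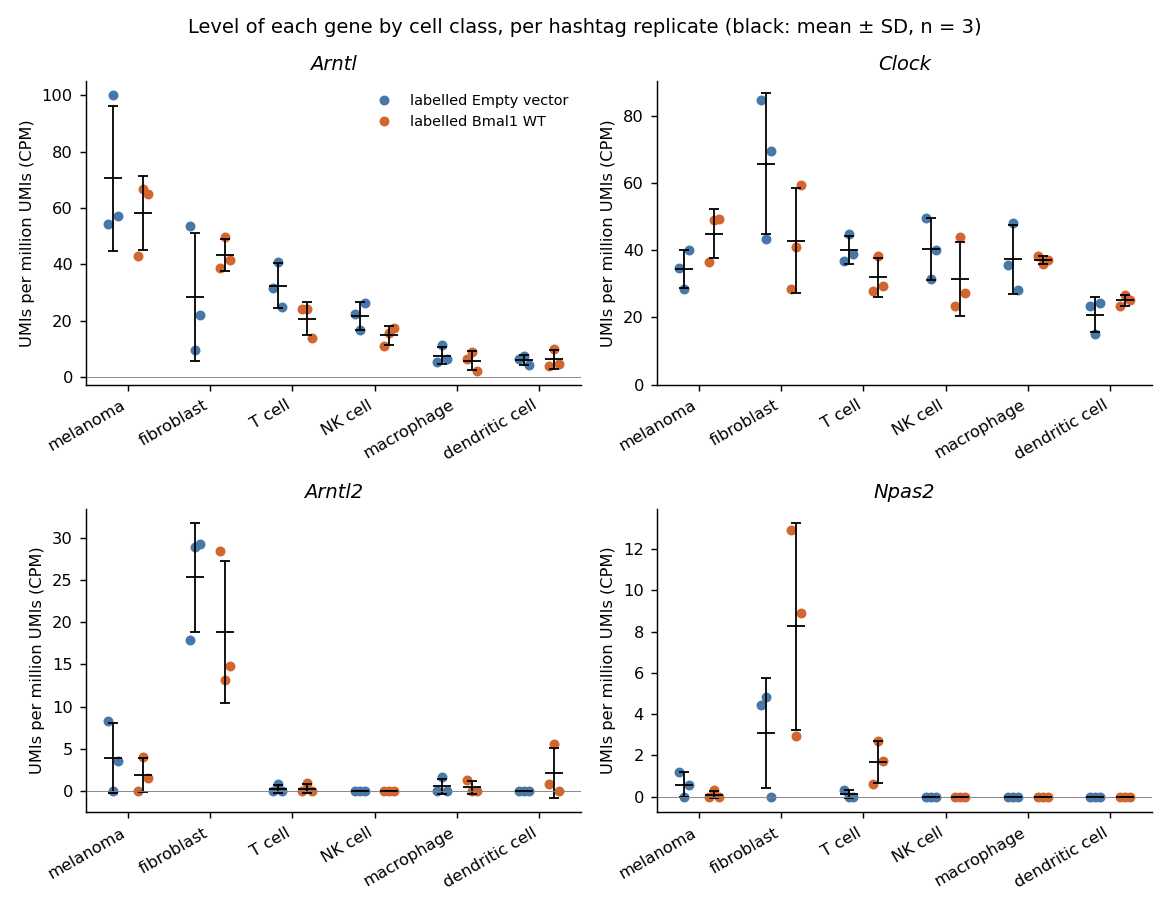
Level of Arntl, Clock, Arntl2 and Npas2 (CPM) in each hashtag replicate of the 6 gated classes, with Empty vector and Bmal1 WT replicates in different colours. Arntl falls from the melanoma-gated class (43.1 to 100.2 CPM) to dendritic cells (4.02 to 10.0 CPM), Clock varies less, and Arntl2 stands highest in fibroblasts (13.1 to 29.3 CPM).

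The edgeR fit over all classes, which contrasts each class with the mean of the other 5 and keeps the replicate as a block, separated the classes more sharply. Arntl was higher in melanoma-gated cells by 2.0 ± 0.17 on the log2 scale (SE, adjusted p = 5.053e-12), in fibroblasts by 1.20 ± 0.23 (adjusted p = 5.941e-05) and in T cells by 0.61 ± 0.18 (adjusted p = 0.006059). It was lower in macrophages (log2 difference -1.78 ± 0.25, adjusted p = 2.885e-07) and in dendritic cells (-1.97 ± 0.26, adjusted p = 8.196e-08), and in NK cells it did not pass (-0.05 ± 0.22, adjusted p = 0.9489). Each of the 5 calls held under 16 of 16 alternatives. Such calls were common among all 14160 genes tested: 57.5% passed in melanoma-gated cells, 43.0% in fibroblasts, 47.9% in T cells, 47.4% in NK cells, 54.5% in macrophages and 41.5% in dendritic cells. The median difference over all genes was 0.19 in melanoma-gated cells and -0.44 in macrophages.

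Clock varied less between classes. Its level was 55.9 CPM in fibroblasts (432 UMIs), 45.9 in melanoma-gated cells (750 UMIs), 39.3 in T cells (405 UMIs), 38.1 in macrophages (279 UMIs), 35.0 in NK cells (329 UMIs) and 24.0 in dendritic cells (160 UMIs). The span from fibroblasts to dendritic cells was 2.33-fold (1.94 to 2.82). By replicate, fibroblasts gave 84.8, 43.3 and 69.5 CPM (Empty vector h1, h7, h8) and 28.5, 40.9 and 59.3 CPM (Bmal1 WT h3, h5, h9), and dendritic cells gave 23.4, 15 and 24.2 CPM and 23.3, 26.7 and 25.2 CPM. The fibroblast values spread over a wide range but all lay above the dendritic cell values of all 6 replicates.

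Of the 6 classes, Clock passed the edgeR contrast in fibroblasts (0.61 ± 0.18 higher, adjusted p = 0.005747) and dendritic cells (-0.80 ± 0.16, adjusted p = 0.0001448). The fibroblast call was lost without Empty vector h1 (adjusted p = 0.0518) and otherwise held, with adjusted p from 0.0009794 upward over 16 alternatives. Melanoma-gated cells differed from the rest by 0.22 ± 0.15 (adjusted p = 0.2323), and T cells, NK cells and macrophages by between -0.03 and 0.02. In the pairwise exact tests dendritic cells were below melanoma-gated cells, fibroblasts, T cells and macrophages in 6 of 6 replicates (p = 0.03125, adjusted p = 0.0987) and below NK cells in 5 of 6 (p = 0.0625). No pair among the other 5 classes reached that limit.

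Because Arntl varied far more than Clock, their counts stood in different proportions in each class. Arntl made up 58.9% of the Arntl and Clock UMIs in melanoma-gated cells (Clopper-Pearson 56.6 to 61.2), 46.5% in fibroblasts, 42.1% in T cells, 35.7% in NK cells, 20% in dendritic cells and 15.2% in macrophages (11.5 to 19.5). Capture differs between transcripts, so such a share says nothing of which gene is more abundant and can be read only between classes. Across 6 replicates it ran from 54.1% to 77.8% in melanoma-gated cells and from 5.56% to 19.6% in macrophages, with no overlap. Fibroblasts had the widest range (18.2% to 57.7%), and that range covered all the values of T and NK cells.

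**Figure D2:**
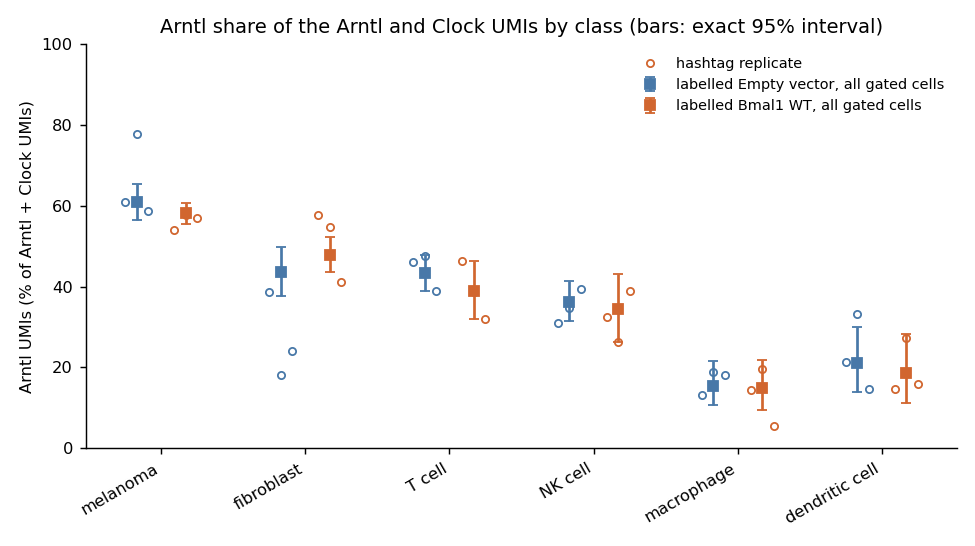
Arntl UMIs as a percent of Arntl plus Clock UMIs in each class, one point per hashtag replicate and coloured by library. The melanoma-gated replicates (54.1% to 77.8%) lie above those of macrophages (5.56% to 19.6%) and dendritic cells (14.7% to 33.3%).

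The paralogues were largely found in fibroblast-gated cells. Arntl2 reached 27.7 CPM there (214 UMIs) against 4.90 CPM in melanoma-gated cells (80 UMIs), a 5.65-fold difference (4.35 to 7.40). It was counted 3 times in T cells, 3 times in macrophages and 6 times in dendritic cells, of which 5 UMIs came from 1 cell. In NK cells (median 4986 UMIs) a UMI was seen in 0 of 1479 cells, where a floor of 3 counts allows up to 0.203% of cells with a UMI, which does not limit how many express the gene. Against the same floor over the class (0.319 CPM), the fibroblast point estimate stood 86.7-fold higher. That fold is not a lower bound. The counting interval ran from 24.1 to 31.7 CPM in fibroblasts and up to 0.393 CPM in NK cells. By replicate, fibroblasts gave 17.9, 28.9 and 29.3 CPM (Empty vector h1, h7, h8) and 28.5, 13.1 and 14.8 CPM (Bmal1 WT h3, h5, h9). Melanoma-gated cells gave 8.25, 0 and 3.54 CPM and 0, 4.02 and 1.56 CPM. All 6 fibroblast values thus exceeded all 6 melanoma-gated values, and fibroblasts were above each of the other 5 classes in 6 of 6 replicates (exact sign-flip p = 0.03125, adjusted p = 0.0987).

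Npas2 was the scarcest member, with 50 UMIs in fibroblasts (6.47 CPM), 6 in T cells (0.582 CPM), 6 in melanoma-gated cells (0.367 CPM) and 0 in NK cells, macrophages and dendritic cells. The fibroblast point estimate was set against the same floor of 3 counts over a class. That estimate stood 20.3-fold above the floor in NK cells, 15.8-fold in macrophages and 14.4-fold in dendritic cells. These folds are not lower bounds. The counting interval ran from 4.80 to 8.53 CPM in fibroblasts. It reached up to 0.393 CPM in NK cells, 0.504 CPM in macrophages and 0.552 CPM in dendritic cells. Fibroblast replicates were 4.46, 4.81 and 0 CPM (Empty vector h1, h7, h8) and 12.9, 2.92 and 8.90 CPM (Bmal1 WT h3, h5, h9), so that 5 of 6 replicates held any Npas2, each from 1 to 5 UMIs.

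In the edgeR contrasts both paralogues were higher in fibroblasts (adjusted p = 4.231e-09 for Arntl2 and 3.447e-05 for Npas2). Fibroblasts were the class in which 4 of 4 members were called higher, where 28.4% of all genes tested were. Arntl2 was also called higher in melanoma-gated cells (adjusted p = 0.001735), which made 2 of 4 members there against 37.8% of all genes, but this call was lost without Empty vector h1 (adjusted p = 0.0533) and with each cell weighted equally in limma (0.671). Arntl2 was called lower in NK cells (adjusted p = 0.005982), the 1 member of 4 called lower there against 20.7% of all genes. That call held in 14 of 15 alternatives and was lost with a stricter gate (adjusted p = 1). In T cells 1 member of 4 was called higher (33.7% of all genes), and Npas2 missed (adjusted p = 0.05123, and 0.0464 without Empty vector h8). In macrophages 1 of 4 was called lower (34.9% of all genes) and in dendritic cells 2 of 4 (20.4%). No fold is given for the paralogues in these contrasts, since the counts of several replicates are 0.

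The share of cells with at least 1 UMI followed the levels but also depth. Arntl was detected in 56.2% of melanoma-gated cells, 44.6% of fibroblasts, 16.8% of T cells, 11% of NK cells, 7.07% of dendritic cells and 6.07% of macrophages. With every cell thinned to 3000 UMIs the shares were 19.1%, 13.0%, 8.54%, 6.12%, 1.72% and 2.13%, after leaving out between 48 and 355 shallower cells per class. The order of the first 4 classes was the same at equal depth, and dendritic cells and macrophages changed places. Clock gave thinned shares of 16.3% in fibroblasts, 15.3% in melanoma-gated cells, 11.4% in T cells, 11% in macrophages, 9.91% in NK cells and 6.96% in dendritic cells. No class is known to lack Arntl or Clock, so no class gives a background share for them.

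**Figure D3:**
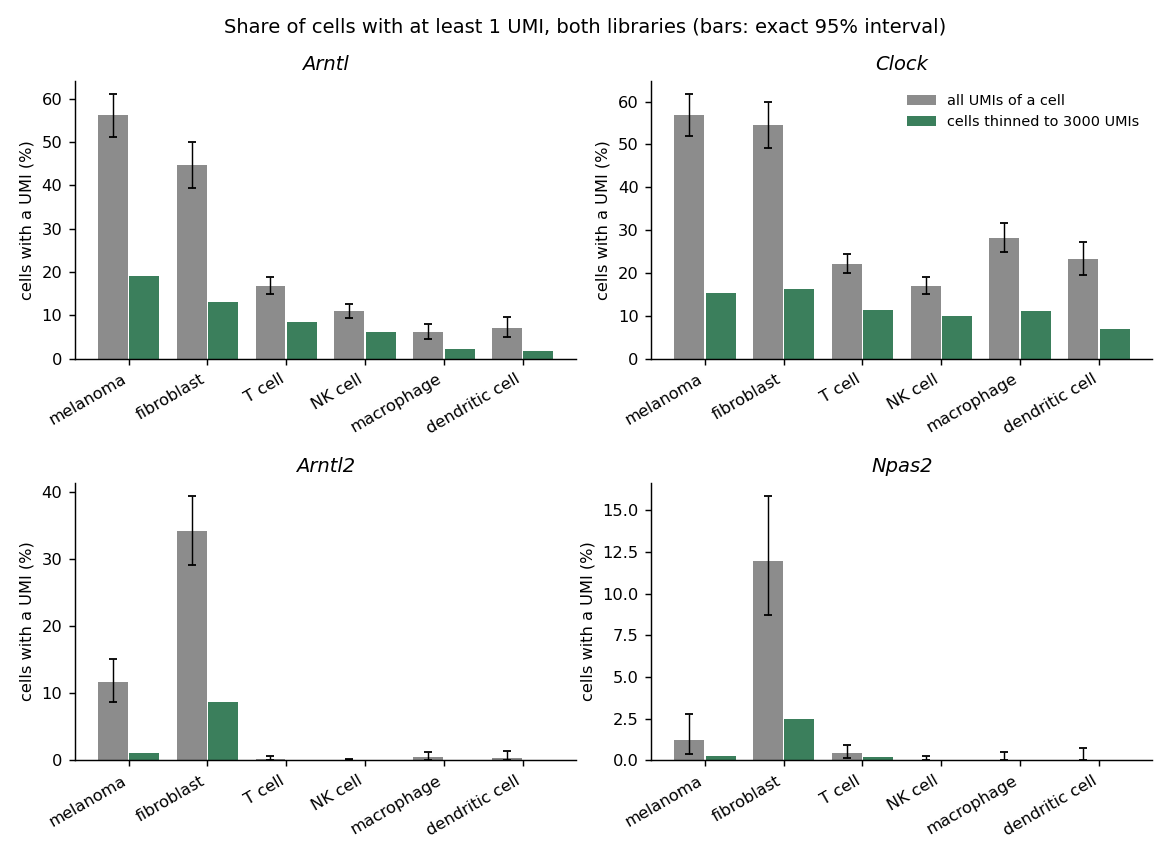
Percent of cells with at least 1 UMI of each member by class, as counted and after thinning every cell to 3000 UMIs. Detection of Arntl in melanoma-gated cells drops from 56.2% to 19.1% at equal depth and remains above the other classes, and Arntl2 and Npas2 are seen mainly in fibroblasts.

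Both partners were commonly seen in the same deep cell. Among melanoma-gated cells with over 20000 UMIs, Arntl and Clock were both detected in 43 of 51 Empty vector cells (84.3%) and 114 of 147 Bmal1 WT cells (77.6%). Among those with at most 20000 UMIs the shares were 12.3% of 73 and 14.1% of 142 cells. Joint detection thus differed far more by depth than by library. In single melanoma-gated cells Arntl reached up to 28 UMIs in the Empty vector library and 34 in the Bmal1 WT library.

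The comparison of Bmal1 WT with Empty vector asks whether the introduced Bmal1 changes the clock genes of melanoma cells and of the cells around them. Arntl, the gene delivered, was not higher in the melanoma-gated cells labelled Bmal1 WT. Over all melanoma-gated cells it was 63.4 CPM in Empty vector (308 UMIs) and 66.9 CPM in Bmal1 WT (767 UMIs), a log2 ratio of 0.08 with a counting interval of -0.12 to 0.27. The replicates, given above, overlapped, and edgeR gave -0.06 ± 0.31 (adjusted p = 1). Whether the vector transcript carries sequence that 3′ counting assigns to Arntl is unknown here, so the value does not check the labels, and the groups are named by their labels only. In the class fits every member was either untested for low counts or did not pass: 0 of 3 members tested in melanoma-gated cells, where edgeR called 0.00% of 10881 genes. There edgeR called 0 genes in all, with 457 at an unadjusted p under 0.05, and DESeq2 called 1. In cells that the gate left without a class, Arntl was 23.3 CPM in Empty vector (128 UMIs) and 40.6 CPM in Bmal1 WT (362 UMIs). That is a pooled log2 ratio of 0.80 (counting interval 0.51 to 1.10), beside -0.04 (-0.28 to 0.21) for Clock. Arntl2, which was not delivered, was also higher there in Bmal1 WT (35 against 5 UMIs, log2 ratio 2.11, 0.75 to 3.82). Under 1% mitochondrial UMIs were found in 79 of 817 ungated Empty vector cells and 229 of 644 ungated Bmal1 WT cells. Which cells these were, and whether they include melanoma cells that the gate missed, was not tested.

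Clock in melanoma-gated cells was 34.8, 28.6 and 40.1 CPM in Empty vector h1, h7 and h8 and 36.6, 49.1 and 49.3 CPM in Bmal1 WT h3, h5 and h9. The groups overlapped by 1 value, and the difference was 0.31 ± 0.29 (edgeR adjusted p = 1). Arntl2 was lower in Bmal1 WT melanoma-gated cells when counts were pooled (44 UMIs, 3.84 CPM, against 36 UMIs, 7.42 CPM, a log2 ratio of -0.95 with a counting interval of -1.62 to -0.27). Its replicates overlapped, at 8.25, 0 and 3.54 CPM against 0, 4.02 and 1.56 CPM, and the fit gave adjusted p = 1.

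Only 52 of 124 and 85 of 289 melanoma-gated cells carried exactly 1 hashtag and so entered a replicate. Arntl was 60.1 CPM in those cells and 72.8 CPM in the remainder. In the remainder alone the library log2 ratio of Arntl was -0.18 (counting interval -0.48 to 0.13), and in the hashtagged cells it was 0.14 (-0.12 to 0.40). Both intervals include 0. Of the melanoma-gated cells, 50 of 124 and 102 of 289 had under 1% mitochondrial UMIs, and without them Arntl was 60.5 and 65.6 CPM and the edgeR difference -0.04 ± 0.34.

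**Figure D4:**
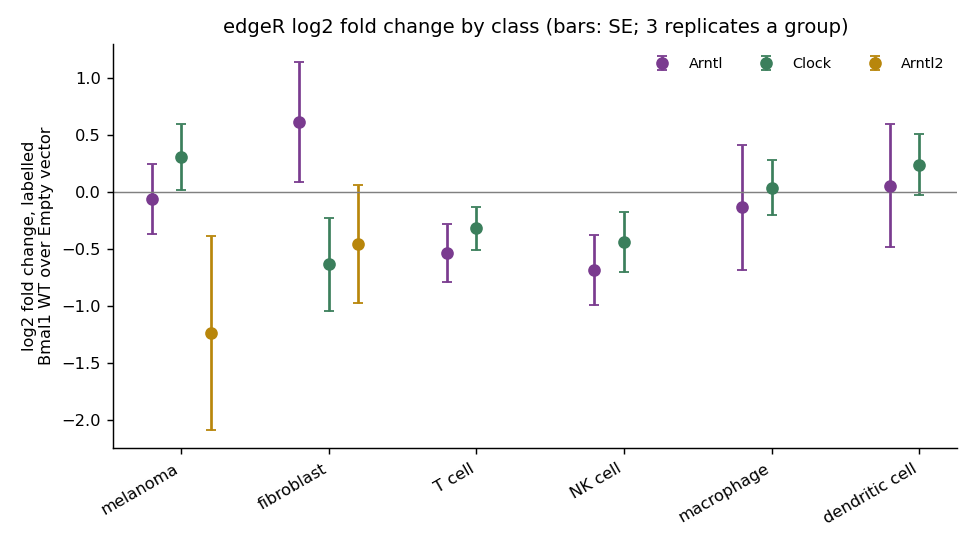
Log2 difference of Bmal1 WT from Empty vector for each member and class from edgeR, with bars of 1 SE. Arntl in melanoma-gated cells lies at -0.06 and no member passed the adjusted threshold of 0.05 in any class.

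In the T cells Arntl was lower in all 3 Bmal1 WT replicates, at 24.2, 24.1 and 13.9 CPM (h3, h5, h9), than in the Empty vector replicates, at 31.6, 40.7 and 24.8 CPM (h1, h7, h8). The group means were 20.7 ± 5.95 and 32.4 ± 7.98 CPM (SD, n = 3 each), and the exact permutation test gave p = 0.1, the smallest that 3 against 3 allow. The edgeR difference was -0.53 ± 0.25 (adjusted p = 0.2914, from 0.2108 to 0.6888 over 16 alternatives). Of all genes tested in T cells, 15.8% had every Bmal1 WT replicate below every Empty vector replicate, so this separation was common, and edgeR called 0.771% of them. Npas2 in T cells also did not overlap (0.12 against 1.68 CPM on average), on 1 and 5 hashtagged UMIs and without a test, where the groups of 25.3% of all genes did not overlap.

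The NK cells gave Arntl values of 22.2, 16.6 and 26.2 CPM in Empty vector (h1, h7, h8) and 11.1, 15.7 and 17.4 CPM in Bmal1 WT (h3, h5, h9), which overlapped. The edgeR difference was -0.68 ± 0.31 (unadjusted p = 0.04371, adjusted p = 0.4259), where 11.2% of all genes tested had an unadjusted p under 0.05 and 0.0598% passed adjustment. Clock was also at lower values in Bmal1 WT NK cells (23.3 to 44.0 against 31.3 to 49.6 CPM, log2 ratio -0.51 over the pooled counts, counting interval -0.88 to -0.15), and edgeR gave -0.44 ± 0.27 (adjusted p = 0.5553).

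In fibroblasts, macrophages and dendritic cells edgeR called 0 genes, with 765, 1097 and 1219 at an unadjusted p under 0.05, whereas DESeq2 called 32, 14 and 63. Arntl in fibroblasts was 53.6, 9.63 and 22.0 CPM in Empty vector (h1, h7, h8) and 38.8, 49.7 and 41.5 CPM in Bmal1 WT (h3, h5, h9). The Bmal1 WT values all fell inside the Empty vector range, and the fitted difference was 0.61 ± 0.52 (edgeR adjusted p = 0.7758). Clock in fibroblasts differed by -0.63 ± 0.41 (adjusted p = 0.6902) and Arntl2 by -0.45 ± 0.52 (adjusted p = 0.8359). These fits rest on the 30 of 131 and 42 of 212 fibroblasts with exactly 1 hashtag. Over all fibroblasts the pooled log2 ratio was 0.03 for Arntl (116 and 259 UMIs, counting interval -0.29 to 0.36), -0.22 for Clock (-0.51 to 0.08) and 0.20 for Arntl2 (61 and 153 UMIs, -0.24 to 0.65), so Arntl2 turned direction and all 3 intervals include 0. In macrophages Arntl and Clock differed by -0.13 ± 0.55 and 0.04 ± 0.24, and in dendritic cells by 0.06 ± 0.54 and 0.24 ± 0.27 (edgeR adjusted p from 0.7551 to 0.9791).

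The difference itself, melanoma-gated cells minus the mean of the other 5 classes, was 0.05 ± 0.36 for Arntl (edgeR adjusted p = 1) and 0.52 ± 0.29 for Clock (adjusted p = 0.7513). That test called 0.0212% of 14160 genes and 0 of 4 members. The vector was put into the melanoma line alone, so the other classes served here as cells without it, as far as the gate separates them.

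A list of 24 other clock genes placed the members in their pathway. In melanoma-gated cells 16 of the 24 were higher than in the other classes and 4 were lower, against 37.8% and 19.8% of all genes, with a median difference of 0.92 beside 0.19 for all genes. The higher genes included Rorb (6.77 ± 0.34), a ROR activator, Nr1d1 (3.64 ± 0.45), Dbp (2.28 ± 0.34), an output transcription factor of the clock, and Ciart (2.22 ± 0.36), a repressor of the heterodimer. Nfil3, which competes with Dbp for its sites, was lower (-2.11 ± 0.20), as was Per1 (-1.69 ± 0.25). All 6 had an adjusted p of at most 2.271e-06 in edgeR. The Nr1d1 value was carried by the Bmal1 WT library, which gave 436 UMIs (38.0 CPM) against 36 (7.42 CPM) in Empty vector. Fibroblasts had 24.3 and 42.4 CPM of Nr1d1 in the same libraries, so in Empty vector fibroblasts stood above the melanoma-gated cells. Dbp was likewise not above fibroblasts in Empty vector (12.8 against 14.8 CPM), but was in Bmal1 WT (21.4 against 13.2 CPM). Rorb and Ciart were above fibroblasts in both libraries.

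The other classes had patterns of their own on this list. Fibroblasts had 11 of 24 higher and 3 lower (28.4% and 14.6% of all genes), with a median of 0.53 beside 0.08 for all genes. T cells had 8 higher and 2 lower (33.7% and 14.3% of all genes, median -0.06 beside 0.18), and NK cells had 6 and 3 (26.7% and 20.7%, median -0.09 beside -0.02). In macrophages 5 were higher and 12 lower (19.6% and 34.9% of all genes, median -0.95 beside -0.44), and in dendritic cells 4 were higher and 9 lower (21.1% and 20.4%, median -0.53 beside -0.16). These last classes were also those with the least Arntl, but a link between the list and Arntl was not tested.

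Between the vectors, 0 of the 24 list genes passed in edgeR in any of the 6 classes. In melanoma-gated cells 23 were tested, 4 had an unadjusted p under 0.05 and all 4 were higher in Bmal1 WT, where 2.07% of all genes were. The list median was 0.27 beside 0.00 for all genes. Nr1d1 was 8.84, 14.3 and 6.48 CPM in Empty vector h1, h7 and h8 and 65.7, 25.0 and 60.2 CPM in Bmal1 WT h3, h5 and h9. Its difference was 2.62 ± 0.49 (edgeR unadjusted p = 0.0003045, adjusted p = 0.8431), without overlap, and the pooled counts were 36 and 436 UMIs, a log2 ratio of 2.36 (1.87 to 2.89). Per1 was 9.43, 14.3 and 7.66 CPM against 17.2, 21.0 and 46.1 CPM, a difference of 1.66 ± 0.49 (edgeR unadjusted p = 0.006932, adjusted p = 1).

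The other two, Nr1d2 (1.31 ± 0.42) and Per3 (1.56 ± 0.63), were named after their values were seen, and both had an adjusted p of 1 in edgeR. Groups that did not overlap were found for 10.0% of all genes in this class. The Nr1d1 and Per1 values of these cells were known when the list was chosen. In NK cells, by contrast, 5 of 19 list genes tested had an unadjusted p under 0.05 and all 5 (among them Nr1d2, Tef, Cipc and Bhlhe40, named after their values were seen) had lower values in Bmal1 WT, as 6.93% of all genes did. In T cells 6 of 22 did so (11.3% of all genes), and 1, Timeless, had a higher value (7.41% of all genes). Nr1d2 was 29.8, 26.4 and 35.3 CPM in Empty vector NK cells (h1, h7, h8) and 12.2, 12.6 and 9.94 CPM in Bmal1 WT NK cells (h3, h5, h9), without overlap. The edgeR difference was -1.36 ± 0.27 (adjusted p = 0.0765), the smallest adjusted p of the list in NK cells, and in T cells it was -0.74 ± 0.26 (adjusted p = 0.168). In the 5 classes other than melanoma the list medians lay between -0.35 and -0.22, with medians over all genes between -0.16 and 0.02.

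**Figure D5:**
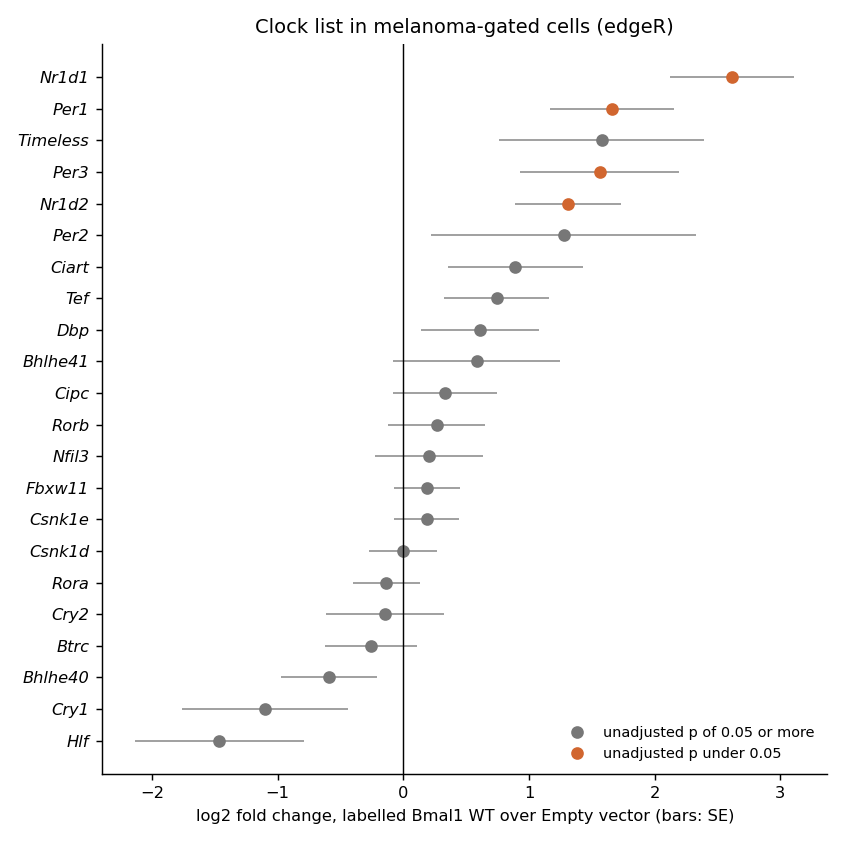
Log2 difference of Bmal1 WT from Empty vector in melanoma-gated cells for 22 of the 23 tested genes of the clock list, from edgeR, with bars of 1 SE and the genes with an unadjusted p under 0.05 in a second colour. Nr1d1 (2.62) and Per1 (1.66) lie at the upper end, and none passed after adjustment.

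Genes with a pattern like that of a member were found over 12 sums (6 classes in each library) among 12409 genes with at least 100 UMIs, by Pearson's r of log2(CPM + 1), given as a description because the sums share libraries and gates. Arntl was most like Tet1 (r = 0.989), Ankrd50 (0.978) and Pvt1 (0.976). Arntl2 was most like Dync2li1 (0.994), Col6a3 (0.985) and Pdgfra (0.981), the last of which is a marker of the fibroblast gate. Clock was most like Spef1 (0.971), Ocrl (0.946) and Rbms2 (0.931). The members were less like each other, at 0.754 for Arntl and Clock, 0.709 for Arntl2 and Clock and 0.642 for Arntl and Arntl2, and Npas2 had fewer than 100 UMIs and was left out.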

How the data were processed

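The authors deposited raw UMI counts per gene and barcode. Cell Ranger 6.1.2 is named in the file headers, and mm10 is named in the submitters' processing notes. The 10x Genomics 3′ v3.1 kit was used. The members and gene lists were chosen with earlier results of these data known. Cells with at least 200 genes and at most 20% mitochondrial UMIs were kept. Classes needed at least 3 markers (2 for melanoma) and a lead of 2 over the next class. Doublets were not called, and cells with several hashtags entered no replicate. Hashtags were called with a Gaussian mixture (scikit-learn 1.9.0). UMIs were summed by class and replicate, and genes with at least 20 UMIs were tested by quasi-likelihood in edgeR 4.0.16 under R 4.3.3. Library size was the total of UMIs, and p was adjusted after Benjamini-Hochberg at 0.05. DESeq2 1.42.0, limma 3.58.1 and Leiden clusters (scanpy 1.11.5) were alternatives. SEs are the log2 difference over the square root of F. The fits were tested on simulated data. Named genes were the members, list genes that passed in a class, the 2 list genes with the smallest p in melanoma-gated cells, the 3 most alike genes and overlapping genes. Some items are not reported here.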

Additional observations from a re-analysis of the deposited data

How the results depend on the processing

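The calls of Arntl by class held under every alternative run. No paired analysis was possible because Empty vector and Bmal1 WT share no hashtag number. Depth limits the paralogues, for which several class sums are 0, and the 6 hashtagged cells of Empty vector h7 in the melanoma gate. No member passed between the vectors under any alternative.

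Of the 42 tests of members, 33 were followed, leaving out 9 of the paralogues in contrasts with sums of 0 or few UMIs for which no value is given above. In these, 502 values were recomputed, and 456 kept direction and side, 41 reversed, 4 lost a call and 1 gained one. The cause was not tested for any of the following changes. None of the results that reversed had passed the test. With each cell weighted equally (limma), the class contrast was -0.18 for melanoma-gated Clock, 0.22 for T cell Clock, 0.2 for NK cell Clock and 0.11 for NK cell Arntl, and Bmal1 WT against Empty vector was 0.02 for melanoma-gated Arntl, -0.53 for dendritic cell Arntl and -0.18 for dendritic cell Clock. Melanoma-gated Arntl2 lost its class call there (adjusted p = 0.671). With Leiden clusters, the class contrast of Clock was 0.04 in T cells and -0.13 in macrophages, and the vector difference was -0.18 for dendritic cell Arntl, 0.12 for fibroblast Arntl2 and 0.08 for macrophage Arntl. A stricter gate lost the class call of NK cell Arntl2 (adjusted p = 1) and gave class contrasts of 0.06 for T cell Clock and -0.06 for macrophage Clock, and vector differences of -0.31 for dendritic cell Arntl, 0.17 for macrophage Arntl and -0.11 for macrophage Clock. Hashtags called by centred log count gave 0.02 for T cell Clock by class and vector differences of -0.04 for macrophage Clock and 0.05 for melanoma-gated Arntl. Leaving out cells under 1% mitochondrial UMIs gave -0.02 for the vector difference of Arntl in melanoma-gated cells minus that in the other classes.

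Leaving out 1 replicate at a time, vector differences ran from -0.46 to 0.35 for dendritic cell Arntl, -0.42 to 0.16 for macrophage Arntl, -0.13 to 0.21 for macrophage Clock and -0.2 to 0.1 for melanoma-gated Arntl, and from -0.23 to 0.16 for Arntl in melanoma-gated cells minus the other classes. Class contrasts ran from -0.27 to 0.05 for NK cell Arntl, -0.14 to 0.05 for NK cell Clock, -0.11 to 0.04 for T cell Clock, -0.08 to 0.13 for macrophage Clock and 0.47 to 0.74 for fibroblast Clock (lost without Empty vector h1, adjusted p = 0.0518). The adjusted p of melanoma-gated Arntl2 ran from 0.00041 to 0.0533 (lost without Empty vector h1) and that of Npas2 in T cells from 0.0464 (passed without Empty vector h8) to 0.0624.

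Leiden clusters moved the level of Arntl in melanoma-gated cells to 59.5 CPM, of Arntl2 in fibroblasts to 32.6 CPM and of Arntl2 in dendritic cells to 0.103 CPM. They also reversed 5 of 180 recomputed orders, none of which had passed: -0.03 and -0.36 for Arntl2 in dendritic cells over T cells and macrophages, -0.05 and -0.12 for Clock in macrophages over NK and T cells, and -0.38 for Npas2 in T cells over melanoma-gated cells.

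Counts of genes called by vector moved more. In T cells, from 84, they were 292 (DESeq2), 128 (Leiden clusters), 172 (TMM), 151 (at least 100 UMIs), 138 (limma) and 964 (no filter). In NK cells, from 6, they were 98 (DESeq2), 17 (Leiden clusters), 0 (centred log count), 234 (no filter) and 18 (stricter gate). From 0 in dendritic cells, they were 63 (DESeq2), 21 (Leiden clusters), 2 (limma), 238 (no filter) and 1 (stricter gate). In fibroblasts they were 32 (DESeq2) and 327 (no filter), in macrophages 14 and 278, and in melanoma-gated cells 1 and 22. The difference between melanoma-gated cells and the rest, from 3, gave 74 (DESeq2), 0 (centred log count), 35 (limma), 207 (no filter) and 0 (stricter gate). Leaving out 1 replicate gave 0 (without Bmal1 WT h5) to 170 (without Bmal1 WT h3) in T cells, 0 (without Empty vector h1) to 127 (without Empty vector h7) in NK cells, 0 to 1 in dendritic cells (1 without Empty vector h8), fibroblasts (1 without Bmal1 WT h5) and macrophages (1 without Bmal1 WT h9), and 0 (without Empty vector h1) to 51 (without Bmal1 WT h5) for the difference between melanoma-gated cells and the rest.

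Scaling moved the split of calls. Higher and lower genes by class were 5348 and 2797 in melanoma-gated cells (DESeq2 4169 and 4021), 4767 and 2020 in T cells (TMM 3822 and 2533, DESeq2 3688 and 3036), 2780 and 4936 in macrophages (TMM 3716 and 2991, DESeq2 3391 and 3770) and 2989 and 2884 in dendritic cells (TMM 3525 and 2155). By vector in T cells they were 57 and 27 (TMM 143 and 29, DESeq2 230 and 62), in NK cells 5 and 1 (TMM 4 and 0), and for the difference between melanoma-gated cells and the rest 1 and 2 (TMM 0 and 2, DESeq2 33 and 41). TMM moved the median class contrast of all genes from -0.44 to -0.13 in macrophages, from 0.19 to 0.05 in melanoma-gated cells, from 0.18 to 0.03 in T cells, from -0.16 to -0.03 in dendritic cells and from 0.08 to -0.05 in fibroblasts, and the median vector difference in fibroblasts from -0.16 to 0.00.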
